A study of Mus musculus with 9 samples.

Results

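Anillin and 5 septins (Anln, Sept2, Sept4, Sept7, Sept8 and Sept9; the septins are now written Septin2 and so on) were followed across 3 populations of sorted cells of the adult mouse brain. The members were picked by name, as every non-control probe annotated to 1 of the 6 genes, which gave 8 of 41174 probes and 6 of the 24897 genes tested. They were proposed with results of these data in view, and Anln for its difference between both hippocampal groups, so values of that comparison are given for the members as a description, with no test. The groups were SVZ Sox2-GFP, hippocampus Sox2-GFP and hippocampus DCX-DsRed, with 3 arrays each, named A, B and C. SVZ is the subventricular zone along the lateral ventricle. Sox2-GFP cells were sorted from mice in which green fluorescent protein is under control of the Sox2 promoter, Sox2 being a stem cell transcription factor, and DCX-DsRed cells from mice in which a red fluorescent protein is driven by the promoter of Dcx, a microtubule protein of newborn neurons. Mice were 6 to 8 weeks old, 10 dissections were pooled per experiment, and RNA of 1000 cells was amplified for each array. No treatment or deletion is named for any group, and the labels do not say that the arrays of a group came from separate pools, so the p-values speak of the spread among these 9 samples alone, part of which may be technical. The series concerns insulin-like growth factor 2 in adult hippocampal neurogenesis.

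Anillin is a scaffold protein that binds actin, myosin and septins. In dividing cells it organises the contractile ring and the furrow. Septins are GTP-binding proteins that join into mixed filaments, in which Sept7 joins units built of members of the other septin groups. In mouse oligodendrocytes, the cells that make myelin in the brain, Anln and the filament septins Sept2, Sept4, Sept7 and Sept8 are also found in mature myelin. Anillin and septins are thus known from both cell division and myelin, though not every member from both. Sept9 is known mainly for the last step of cell division and for binding microtubules.

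Values are log2 signals relative to the 75th percentile of the same array, so 0 marks that percentile and each step of 1 is a doubling. Between 80.5% and 88.6% of the spots of an array were well above background. Arrays of one group correlated at 0.82 to 0.84 in SVZ Sox2-GFP and at 0.87 to 0.92 in hippocampus DCX-DsRed. In hippocampus Sox2-GFP, arrays A and B correlated at 0.92, while array C stood apart, at 0.82 with A and 0.78 with B. Arrays A and B of that group were the only ones on slide 2. Slide 1 held SVZ Sox2-GFP A and hippocampus DCX-DsRed A and B, and slide 3 held the other four, so slide and group were partly confounded.

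The labels were checked against marker genes. Dcx averaged 1.11 ± 3.0 in SVZ Sox2-GFP, -1.26 ± 1.41 in hippocampus Sox2-GFP and -0.24 ± 1.36 in hippocampus DCX-DsRed (SD, n = 3 each), and Sox2 averaged 1.78 ± 0.73, 0.33 ± 1.08 and 1.60 ± 0.23 in the same order. Within the hippocampus Sox2 was therefore higher on average in the DCX-DsRed sort than in the Sox2-GFP sort, and Dcx differed between these sorts by less than its SD and was highest on average in SVZ Sox2-GFP. The 18 markers of myelinating oligodendrocytes summed to 33.3 to 97.0 times the 75th percentile on the SVZ Sox2-GFP arrays, 8.17 to 48.9 on the hippocampus Sox2-GFP arrays and 335 to 429 on the hippocampus DCX-DsRed arrays. All 18 were well above background on every SVZ Sox2-GFP and hippocampus DCX-DsRed array, and 16 of them on every hippocampus Sox2-GFP array. The 10 measured choroid plexus markers summed to 4.74 to 7.12, 105.6 to 277 and 27.6 to 36.7 in the same order of groups. Without Enpp2, which made up most of the sum in hippocampus DCX-DsRed, the other 9 summed to 2.03 to 2.96, 52.7 to 169.8 and 2.28 to 3.003. The part of other cell types in the values below was not tested, and in sorted pools fewer cells of a type and less RNA per cell cannot be told apart.

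Promoter sequences are shown for the 3 genes with the largest differences between the hippocampal groups, so that their start regions can be compared. They are the 250 bases before a listed transcription start in RefSeq (build GRCm38.p6), on the gene's strand. Capitals mark matches, on either strand, to the GC box GGGCGG, the CCAAT box CCAAT, the SOX core ACAAAG and the cell cycle homology region TTTGAA. Anln has 1 listed start, Septin7 has 2 (the first is shown) and Septin4 has 4 (the one with the most matches is shown).
Anln, chr9:22389207-22389456, minus strand: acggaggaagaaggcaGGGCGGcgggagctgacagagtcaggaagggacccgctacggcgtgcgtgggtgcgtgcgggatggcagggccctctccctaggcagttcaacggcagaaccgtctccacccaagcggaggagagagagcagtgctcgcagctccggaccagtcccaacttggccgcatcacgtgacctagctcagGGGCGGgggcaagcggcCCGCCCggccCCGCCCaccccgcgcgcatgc
Septin7, chr9:25251741-25251990, plus strand: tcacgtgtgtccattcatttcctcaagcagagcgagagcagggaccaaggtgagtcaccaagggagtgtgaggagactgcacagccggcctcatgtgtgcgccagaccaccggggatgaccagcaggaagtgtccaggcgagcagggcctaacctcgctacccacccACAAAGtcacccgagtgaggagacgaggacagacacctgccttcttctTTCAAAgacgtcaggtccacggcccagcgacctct
Septin4, chr11:87580811-87581060, plus strand: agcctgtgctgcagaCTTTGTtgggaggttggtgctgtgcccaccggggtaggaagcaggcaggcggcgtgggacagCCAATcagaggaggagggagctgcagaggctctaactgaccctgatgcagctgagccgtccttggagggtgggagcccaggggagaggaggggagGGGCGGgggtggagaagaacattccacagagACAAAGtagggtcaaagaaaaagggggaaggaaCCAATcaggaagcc
The Anln window held 4 GC boxes, at 70.4% G and C, and no match to the other 3 motifs. The Septin7 window held 1 SOX core and 1 cell cycle homology region, and the Septin4 window 1 GC box, 2 CCAAT boxes and 2 SOX cores. The other Septin7 start held no match, and the other Septin4 starts held GC boxes alone or no match. Of 32851 promoter windows of this length, 32.7% held a GC box, 33.8% a CCAAT box, 16.5% a SOX core and 16% a cell cycle homology region. The Septin4 window was picked for its matches, so nothing is read from its counts beside these shares. A match is a run of letters, not a binding site, and the windows share no motif across all 3 genes.

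Anln was highest in hippocampus DCX-DsRed, intermediate in SVZ Sox2-GFP and lowest in hippocampus Sox2-GFP. Its brighter probe gave 0.51, 1.5 and -0.05 on the SVZ Sox2-GFP arrays, -4.23, -4.59 and -4.29 on the hippocampus Sox2-GFP arrays, and 4.44, 4.05 and 4.66 on the hippocampus DCX-DsRed arrays. No array of one group lay within the range of another, and the probe was well above background on all 9. Hippocampus Sox2-GFP averaged -4.37 ± 0.19 and hippocampus DCX-DsRed 4.38 ± 0.31 (SD, n = 3 each), a difference of -8.75 (SE 0.43) or 430-fold, the contrast on which the gene was chosen. Among all genes, 3.17% passed the adjusted threshold of 0.05 in that comparison, and 1.43% passed it and were lower in hippocampus Sox2-GFP, and nothing is read from the gene's place among them.

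The SVZ arrays took no part in that choice, but the comparisons with them share arrays with it. The choice therefore favours a difference for Anln in both, and their p-values are not free of it. Anln averaged 0.65 ± 0.79 in SVZ Sox2-GFP and -4.37 ± 0.19 in hippocampus Sox2-GFP (SD, n = 3 each), and rose by 5.02 (SE 0.43, 32.5-fold, limma adjusted p = 0.00751). It was 1 of 11 genes called higher in SVZ Sox2-GFP, 0.0442% of all genes, and 0.398% were called in either direction. Against hippocampus DCX-DsRed, SVZ Sox2-GFP was lower by a log2 difference of -3.73 (SE 0.43, 13.2-fold, limma adjusted p = 0.0105), and 1.00% of all genes were called lower and 1.55% in either direction. Without hippocampus DCX-DsRed A that difference was -3.70 and missed the threshold (limma adjusted p = 0.0550). Within slide 3, SVZ Sox2-GFP B and C gave 1.5 and -0.05, hippocampus Sox2-GFP C gave -4.29 and hippocampus DCX-DsRed C gave 4.66. Within slide 1, SVZ Sox2-GFP A gave 0.51, against 4.44 and 4.05 in hippocampus DCX-DsRed A and B. On the brighter probe the order of the groups was therefore the same on each slide that held more than 1 group. With slide as a fixed block the differences were 5.05 (adjusted p = 0.0122) and -3.83 (adjusted p = 0.0225).

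**Figure D1:**
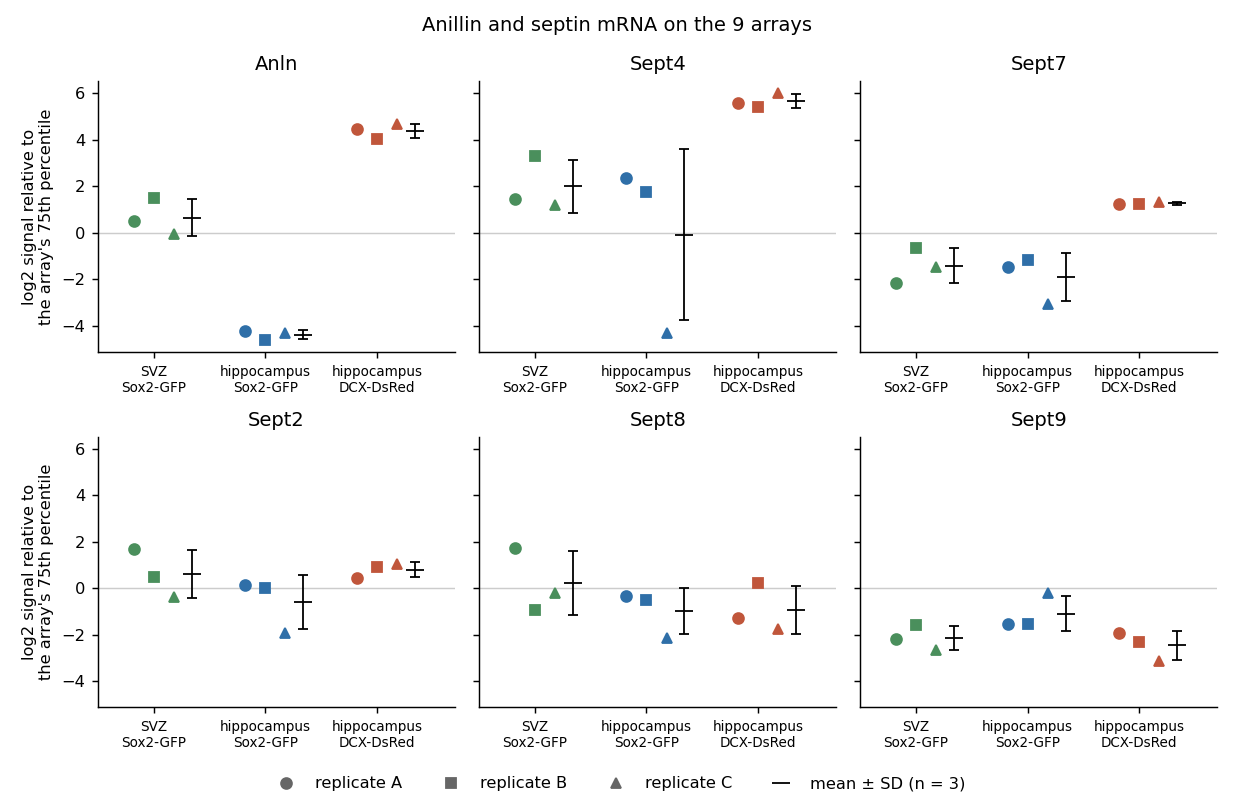
Log2 signal, with each array's 75th percentile at 0, for the brightest probe of each gene on the 9 arrays, with groups from left to right as SVZ Sox2-GFP, hippocampus Sox2-GFP and hippocampus DCX-DsRed. Points are arrays and crossed bars are the mean ± SD (n = 3). Anln separates all 3 groups, Sept4 and Sept7 are highest on the 3 hippocampus DCX-DsRed arrays, and Sept8 overlaps throughout.

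A second, dimmer Anln probe gave the same order for hippocampus DCX-DsRed alone. It read -1.67, -6.72 and -1.23 on the SVZ Sox2-GFP arrays, -4.12, -7.41 and -2.0 on the hippocampus Sox2-GFP arrays, and 2.79, 2.6 and 3.12 on the hippocampus DCX-DsRed arrays. It was not well above background on SVZ Sox2-GFP B and hippocampus Sox2-GFP B, and the Sox2-GFP groups overlapped. The difference of SVZ Sox2-GFP from hippocampus Sox2-GFP was 1.30 (SE 1.67, limma adjusted p = 0.821), so the call of 5.02 rests on the brighter probe. From hippocampus DCX-DsRed it was -6.04 (SE 1.67, adjusted p = 0.145), with no overlap between those groups. Taking the mean of both probes gave 3.16 (adjusted p = 0.159) against hippocampus Sox2-GFP and -4.88 (adjusted p = 0.0237) against hippocampus DCX-DsRed.

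**Figure D2:**
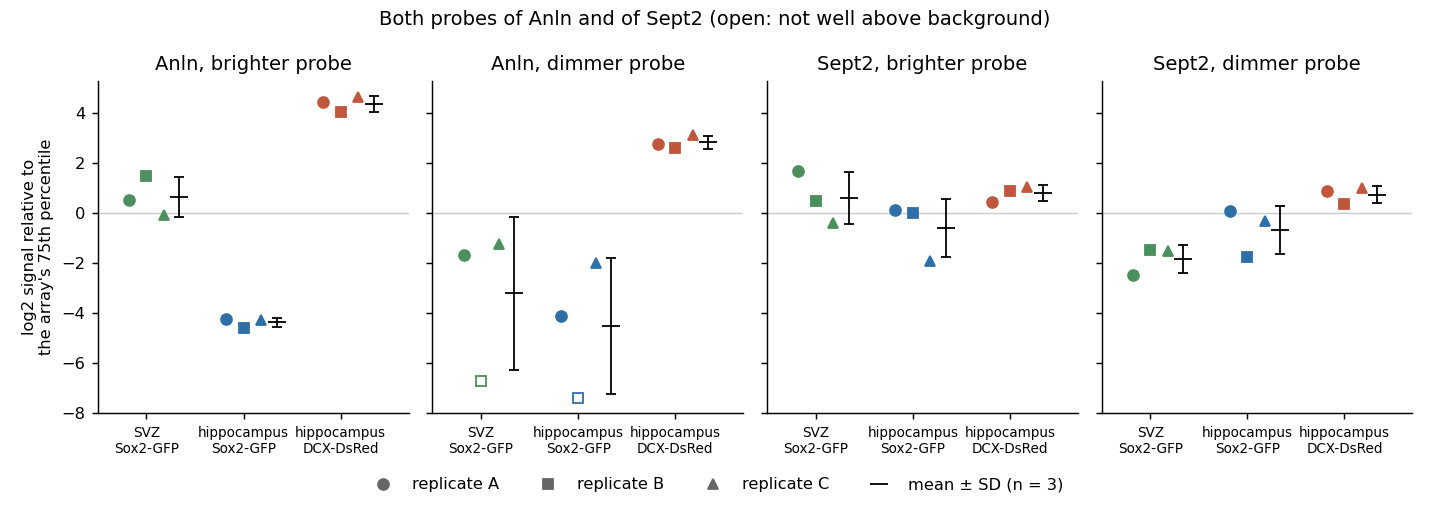
Log2 signal, with each array's 75th percentile at 0, for both probes of Anln and both of Sept2, with groups from left to right as SVZ Sox2-GFP, hippocampus Sox2-GFP and hippocampus DCX-DsRed. Open points were not well above background, and bars are the mean ± SD (n = 3). Both Anln probes are highest in hippocampus DCX-DsRed, while SVZ and hippocampus Sox2-GFP separate only on the brighter one.

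On the brightest probes, Sept4 and Sept7 were the septins that stood highest in hippocampus DCX-DsRed. Sept7, a subunit common to septin filaments, gave -2.14, -0.65 and -1.46 on the SVZ Sox2-GFP arrays, -1.48, -1.17 and -3.06 on the hippocampus Sox2-GFP arrays, and 1.22, 1.25 and 1.33 on the hippocampus DCX-DsRed arrays. The last group lay above all 6 Sox2-GFP arrays, which overlapped each other. Hippocampus Sox2-GFP was 8.99-fold lower than hippocampus DCX-DsRed (-3.17, SE 0.57; -2.59 without hippocampus Sox2-GFP C). Between SVZ Sox2-GFP and hippocampus DCX-DsRed the difference was -2.68 (SE 0.57, limma adjusted p = 0.0669), which missed the threshold and passed it in 5 of 20 alternatives. SVZ Sox2-GFP minus hippocampus Sox2-GFP was 0.49 (SE 0.57, adjusted p = 0.797) and turned to -0.0922 without hippocampus Sox2-GFP C. With slide as a fixed block it was 1.84 (adjusted p = 0.0822).

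Sept4, a septin of postmitotic cells and sperm, gave 1.47, 3.30 and 1.20 on the SVZ Sox2-GFP arrays, 2.34, 1.73 and -4.30 on the hippocampus Sox2-GFP arrays, and 5.55, 5.41 and 5.98 on the hippocampus DCX-DsRed arrays. Hippocampus DCX-DsRed again lay above the other six, and hippocampus Sox2-GFP C lay far below A and B of its own group. The difference between the hippocampal groups was -5.73 (SE 1.57, 53.0-fold) with array C and -3.61 without it. SVZ Sox2-GFP minus hippocampus DCX-DsRed was -3.66 (SE 1.57, limma adjusted p = 0.355), and without hippocampus Sox2-GFP C the same difference had an SE of 0.58 and an adjusted p of 0.0206. SVZ Sox2-GFP minus hippocampus Sox2-GFP was 2.06 (adjusted p = 0.679) and turned to -0.0482 without that array. With slide as a fixed block the hippocampal difference was -10.38, and that of SVZ Sox2-GFP from hippocampus Sox2-GFP was 6.50 (limma adjusted p = 0.0118), so neither value of Sept4 was steady.

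Sept2, a core filament subunit that also acts at the base of cilia, gave 1.69, 0.48 and -0.37 on the SVZ Sox2-GFP arrays, 0.13, 0.02 and -1.91 on the hippocampus Sox2-GFP arrays, and 0.44, 0.90 and 1.05 on the hippocampus DCX-DsRed arrays with its brighter probe. The hippocampal groups did not overlap (-1.38, SE 0.68; -0.72 without hippocampus Sox2-GFP C), whereas SVZ Sox2-GFP overlapped both. SVZ Sox2-GFP minus hippocampus Sox2-GFP was 1.18 (limma adjusted p = 0.585) with this probe and -1.16 (adjusted p = 0.507) with the dimmer one, so the probes disagreed in sign. For the hippocampal groups they gave -1.38 and -1.41, the same direction and size. On the dimmer probe hippocampus DCX-DsRed read 0.89, 0.36 and 1.005, above every Sox2-GFP array, the highest of which read 0.09. Against hippocampus DCX-DsRed, SVZ Sox2-GFP differed by -0.20 (adjusted p = 0.946) and -2.57 (adjusted p = 0.0715).

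Sept8, the filament septin of myelin besides Sept2, Sept4 and Sept7, gave 1.75, -0.92 and -0.19 on the SVZ Sox2-GFP arrays, -0.34, -0.49 and -2.11 on the hippocampus Sox2-GFP arrays, and -1.25, 0.25 and -1.76 on the hippocampus DCX-DsRed arrays. All 3 groups overlapped. Sept9 ran the other way in the hippocampus, with -2.17, -1.60 and -2.64 on the SVZ Sox2-GFP arrays, -1.52, -1.55 and -0.21 on the hippocampus Sox2-GFP arrays, and -1.91, -2.30 and -3.13 on the hippocampus DCX-DsRed arrays. Hippocampus Sox2-GFP lay above hippocampus DCX-DsRed (1.35, SE 0.52; 0.91 without array C, and 2.56 with slide as a fixed block) and above SVZ Sox2-GFP (-1.04 for SVZ Sox2-GFP minus hippocampus Sox2-GFP, SE 0.52, limma adjusted p = 0.522). Array C of hippocampus Sox2-GFP carried the highest Sept9 value and the lowest Sept4, Sept7 and Sept8 values of its group, and the lowest Sept2 value on the brighter probe; on the dimmer Sept2 probe array B was lowest.

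Counted over the brightest probes of the members, 4 of 6 (Anln, Sept2, Sept4 and Sept7) were lower on every hippocampus Sox2-GFP array than on every hippocampus DCX-DsRed array and 1 (Sept9) was higher, where 13.3% and 11.4% of all genes were. As the members were chosen with that comparison known, nothing is read from these counts. Between SVZ Sox2-GFP and hippocampus Sox2-GFP, 1 member (Anln) was higher and 1 (Sept9) lower without overlap, against 8.82% and 8.10% of all genes. Between SVZ Sox2-GFP and hippocampus DCX-DsRed, 3 members (Anln, Sept4 and Sept7) were lower and 0 higher without overlap, against 10.4% and 10.6% of all genes.

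**Figure D3:**
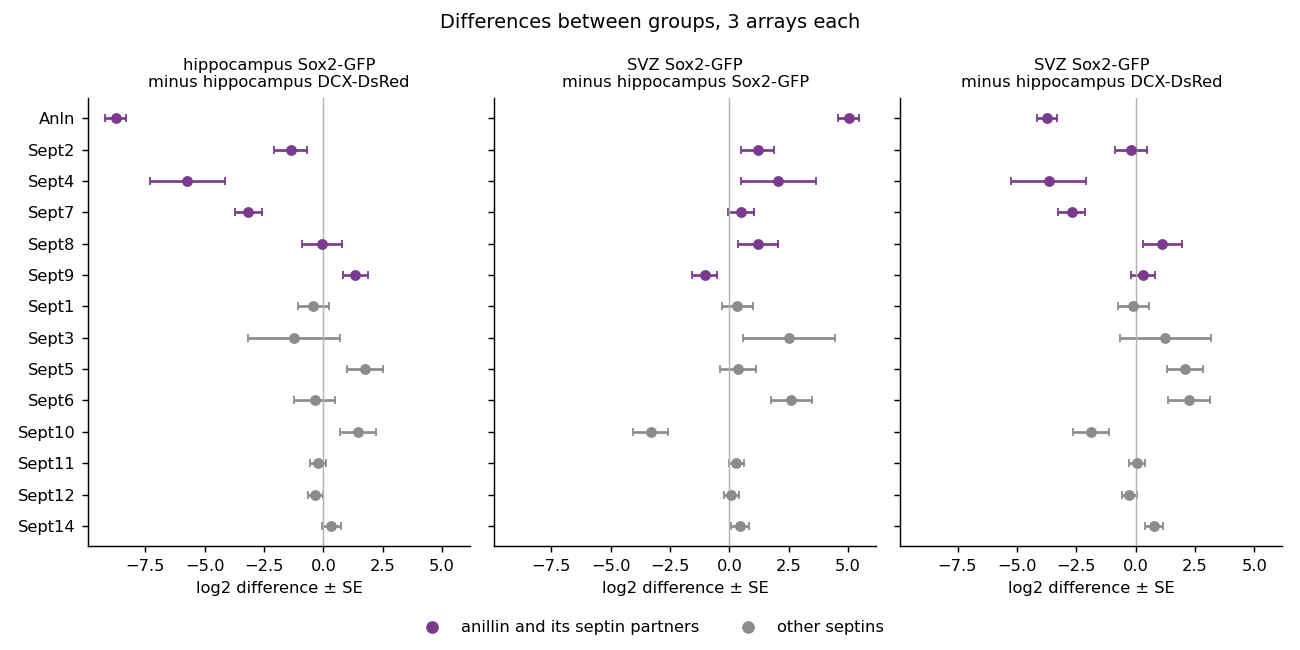
Log2 difference ± SE between groups for the brightest probe of Anln and of the 13 measured septins, in the comparisons hippocampus Sox2-GFP minus hippocampus DCX-DsRed, SVZ Sox2-GFP minus hippocampus Sox2-GFP and SVZ Sox2-GFP minus hippocampus DCX-DsRed (3 arrays per group). Purple points are the 6 members and grey points the other 8 septins. Anln has the largest difference in the first, -8.75, and the second, 5.02, and Anln, Sept4 and Sept7 lie lowest in the third.

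None of the other septins passed the test on its brightest probe. Of 8 measured (Sept1, Sept3, Sept5, Sept6, Sept10, Sept11, Sept12 and Sept14), 0 were called in any of the 3 comparisons. Of all genes, 3.17% were called in the hippocampal comparison. The share was 0.398% between SVZ Sox2-GFP and hippocampus Sox2-GFP and 1.55% between SVZ Sox2-GFP and hippocampus DCX-DsRed, so nothing is read from the 0 calls. On the brightest probes the hippocampal differences of these septins ran between -1.24 (Sept3) and 1.75 (Sept5). Their median was -0.28, where the median of all genes was -0.08. Sept10 gave -1.52, -2.52 and -0.89 on the SVZ Sox2-GFP arrays and 0.87, 1.13 and 3.02 on the hippocampus Sox2-GFP arrays. Those groups did not overlap, with a difference of -3.32 (SE 0.75, limma adjusted p = 0.151). A dimmer Sept10 probe, well above background on 7 arrays, averaged -6.447 and -3.473 in the same groups. Sept6, a partner of Sept2 and Sept7 in the filament, gave 0.86, 1.59 and -0.30 on the SVZ Sox2-GFP arrays and -1.64, -0.69 and -3.34 on the hippocampus Sox2-GFP arrays, without overlap (2.6, SE 0.87, adjusted p = 0.337). Other Sept6 probes well above background on all 9 arrays averaged -1.635 and -2.347 in SVZ Sox2-GFP, against -1.685 and -1.258 in hippocampus Sox2-GFP. The difference of 2.6 therefore rests on the brightest Sept6 probe. Sept5, a septin of synaptic vesicles, was 1.51 ± 0.37 in SVZ Sox2-GFP and -0.59 ± 1.59 in hippocampus DCX-DsRed (SD, n = 3 each, adjusted p = 0.256). A dimmer Sept5 probe, well above background on all 9 arrays, averaged -1.625 in SVZ Sox2-GFP, -1.91 in hippocampus Sox2-GFP and -2.2 in hippocampus DCX-DsRed. The size of the Sept5 differences therefore rests on its brightest probe. On their brightest probes the remaining Sept1, Sept11, Sept12 and Sept14 differed by less than 1 in every comparison, and Sept3 had a standard error of 1.93. A dimmer Sept3 probe, well above background on all 9 arrays, averaged -0.57 in SVZ Sox2-GFP, -3.77 in hippocampus Sox2-GFP and -4.41 in hippocampus DCX-DsRed. The Sept3 probes therefore disagreed in sign between the hippocampal groups. A dimmer Sept11 probe, well above background on 7 arrays, averaged -1.17 in SVZ Sox2-GFP, -3.895 in hippocampus Sox2-GFP and -4.46 in hippocampus DCX-DsRed.

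Cdc42, the small GTPase that sets septin assembly, and its effectors Cdc42ep1 to Cdc42ep5, which bind septins, also gave 0 calls among 6 genes in each comparison. With 3.17%, 0.398% and 1.55% of all genes called, in the order of comparisons given for the other septins, nothing is read from that count. The hippocampal difference was smallest in p for Cdc42ep3 (3.37, SE 0.89, limma adjusted p = 0.0903), which was well above background on 1 of 3 hippocampus DCX-DsRed arrays. Cdc42ep2 was -2.05 (adjusted p = 0.149), Cdc42ep1 -1.11 (adjusted p = 0.208), Cdc42ep4 0.77 and Cdc42ep5 -0.21, and Cdc42 itself -0.17. Without overlap, 2 of 6 (Cdc42ep1 and Cdc42ep2) were lower in hippocampus Sox2-GFP and 1 (Cdc42ep3) was higher, against 13.3% and 11.4% of all genes, and none of the 3 passed the test.

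The members were set beside genes of cell division and of myelin. Of 16 measured genes of cytokinesis, 0 were called in the hippocampal comparison and 0 between SVZ Sox2-GFP and hippocampus Sox2-GFP, with medians of -0.16 and 0.43. Of all genes, 3.17% and 0.398% were called there, so nothing is read from these counts of 0. Between SVZ Sox2-GFP and hippocampus Sox2-GFP 4 of 16 were higher without overlap and 0 lower, against 8.82% and 8.10% of all genes. Between SVZ Sox2-GFP and hippocampus DCX-DsRed 6 were higher and 2 lower, against 10.6% and 10.4% of all genes. In that comparison 1 of 16 was called, against 1.55% of all genes. Ect2, the exchange factor that activates RhoA at the furrow, was the only one called between SVZ Sox2-GFP and hippocampus DCX-DsRed, and it rose, in the opposite direction to Anln: it was at least 6.05-fold higher in SVZ Sox2-GFP (limma adjusted p = 0.0254), since all 3 hippocampus DCX-DsRed arrays read its probe as not well above background. The count of 1 cytokinesis call became 0 under quantile normalization, normexp, slide 3 alone and the replicate block, and without any 1 of the SVZ Sox2-GFP arrays or hippocampus DCX-DsRed A or C, and 2 without hippocampus Sox2-GFP C. Of 9 measured proliferation markers 0 were called in any comparison. With 3.17%, 0.398% and 1.55% of all genes called in the same order of comparisons, nothing is read from that count. All 9 had a difference above 0 between SVZ Sox2-GFP and hippocampus Sox2-GFP, and the median was 1.29. Of the 9, 5 were higher without overlap, against 8.82% of all genes. Mki67, a marker of cycling cells, averaged 1.88 ± 0.66 in SVZ Sox2-GFP, -0.17 ± 0.81 in hippocampus Sox2-GFP and 1.62 ± 0.26 in hippocampus DCX-DsRed (SD, n = 3 each), and Top2a, the topoisomerase of dividing cells, -0.51 ± 0.89, -3.60 ± 0.71 and -3.18 ± 0.87 in the same order.

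Of the 18 markers of myelinating oligodendrocytes, those called were all lower in the Sox2-GFP groups than in hippocampus DCX-DsRed. In the hippocampal comparison 11 of 18 fell and 0 rose, where 1.43% of all genes were called lower. Without overlap 17 of 18 were lower in hippocampus Sox2-GFP, against 13.3% of all genes, and the median difference was -4.65. The 11 calls became 4 without any 1 of the hippocampus DCX-DsRed arrays, and 6 and 7 without hippocampus Sox2-GFP A and B. Ermn, a cytoskeletal protein of myelin, was -5.69 ± 2.34 in hippocampus Sox2-GFP and 3.29 ± 0.18 in hippocampus DCX-DsRed (SD, n = 3 each; -8.98, limma adjusted p = 0.00462), and was well above background on 2 of 3 hippocampus Sox2-GFP arrays. Mog, a surface protein of myelin, had a difference of -5.55 (adjusted p = 0.0208) and Tspan2, a tetraspanin of oligodendrocytes, of -5.76 (adjusted p = 0.0367). Between SVZ Sox2-GFP and hippocampus DCX-DsRed the median of the 18 was -3.18. There 4 of 18 fell (Gjb1, Fa2h, Mal and Cldn11), against 1.00% of all genes called lower, and the 14 others did not pass. Those calls came to 1 without hippocampus DCX-DsRed A, to 2 without hippocampus DCX-DsRed B or C, SVZ Sox2-GFP A or C or hippocampus Sox2-GFP A, and to 10 without hippocampus Sox2-GFP C. Gjb1, a gap junction protein, was -2.30 ± 0.40 in SVZ Sox2-GFP and 2.01 ± 0.13 in hippocampus DCX-DsRed (SD, n = 3 each; -4.31, adjusted p = 0.00862), Fa2h, which makes the hydroxylated lipids of myelin, differed by -3.42 (adjusted p = 0.0397) and Mal, a membrane protein of myelin, by -3.23 (adjusted p = 0.00726). Between SVZ Sox2-GFP and hippocampus Sox2-GFP 0 of 18 were called, against 0.398% of all genes. The median there was 1.24, with 5 of 18 higher without overlap, against 8.82% of all genes. Ermn again came nearest (5.31, adjusted p = 0.0848).

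Anln and the myelin markers were also set beside each other array by array, as differences from the mean of the 3 hippocampus DCX-DsRed arrays. On the SVZ Sox2-GFP arrays Anln differed from that mean by -3.87, -2.88 and -4.43, and the myelin median by -2.82, -2.68 and -3.90. Anln lay within the range of the myelin markers there, with 2, 7 and 8 of 18 further below than it on A, B and C. On the hippocampus Sox2-GFP arrays Anln differed by -8.61, -8.96 and -8.67 and the myelin median by -3.35, -3.59 and -6.56. On hippocampus Sox2-GFP A, B and C, 0, 0 and 3 of 18 myelin markers lay further below than Anln. Anln was chosen for its difference between the hippocampal groups, so nothing is read from its distance to the list on these arrays. Values on the SVZ Sox2-GFP arrays are differences from the same hippocampus DCX-DsRed arrays and carry that choice too. Nothing is read from the place of Anln among the markers there either. The median of the cytokinesis genes stayed between -0.27 and 1.17 on these 6 arrays.

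**Figure D4:**
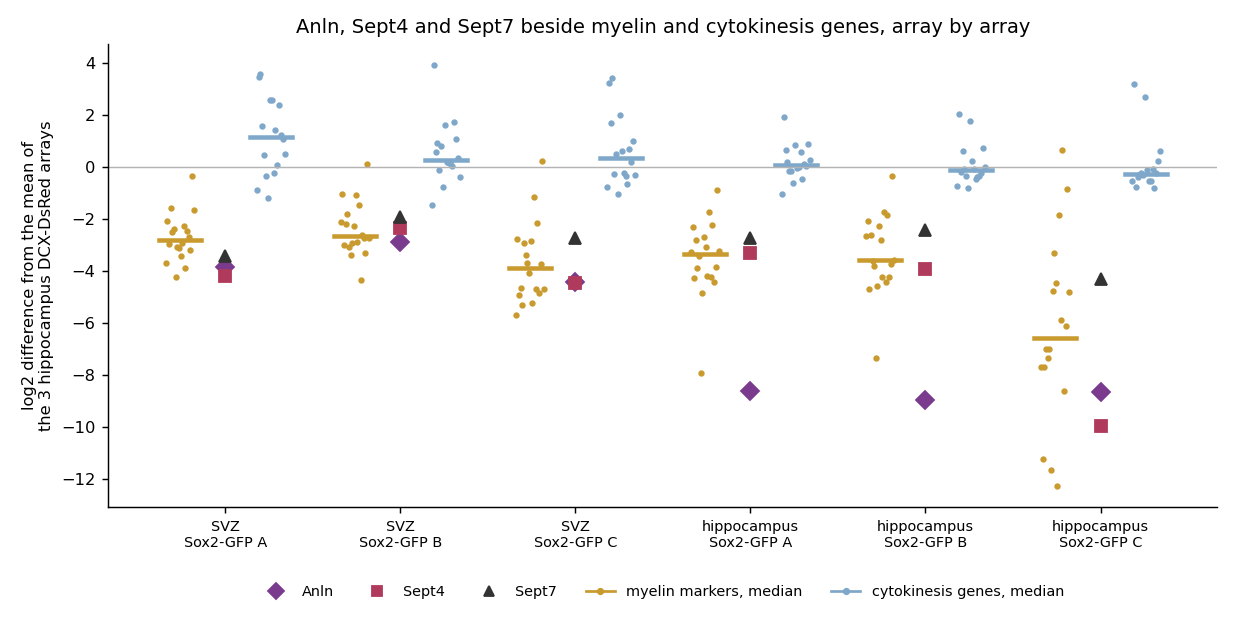
Log2 difference from the mean of the 3 hippocampus DCX-DsRed arrays on each SVZ Sox2-GFP and hippocampus Sox2-GFP array, for Anln, Sept4, Sept7, the 18 myelinating oligodendrocyte markers and the 16 cytokinesis genes. Small points are genes and bars are list medians. Anln lies at -8.61 to -8.96 on the hippocampus Sox2-GFP arrays, and cytokinesis medians lie between -0.27 and 1.17 on all 6 arrays.

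Lists of other cells were counted in the same way. Of all genes, 3.17% were called in either direction in the hippocampal comparison. The share was 0.398% between SVZ Sox2-GFP and hippocampus Sox2-GFP and 1.55% between SVZ Sox2-GFP and hippocampus DCX-DsRed. Choroid plexus markers rose in hippocampus Sox2-GFP over hippocampus DCX-DsRed, 7 of 10 being called, among them Ttr, the thyroxine carrier of the choroid plexus (9.31, limma adjusted p = 0.00669), Tmem72 (9.38, adjusted p = 0.0118) and Otx2 (8.04, adjusted p = 0.00989). On the 3 hippocampus DCX-DsRed arrays Ttr was well above background on 2, and Tmem72 and Otx2 on 1, so these sizes include readings near background. Of these 10, 5 fell in SVZ Sox2-GFP against hippocampus Sox2-GFP, among them Ttr (-9.50, adjusted p = 0.0167), Cldn2 (-4.33, adjusted p = 0.00892) and Tmem72 (-10.69, adjusted p = 0.0190), the last well above background on 1 of 3 SVZ Sox2-GFP arrays. Their direction was opposite to that of Anln in both comparisons, and their part in its values was not tested. Calls were 1 of 9 immature neuron markers (Stmn1, -4.46, adjusted p = 0.0395) and 2 of 10 endothelial and mural markers (Vtn, 3.80, adjusted p = 0.0276, and Tek, higher by at least 13.9-fold with an adjusted p of 0.0138) in the hippocampal comparison. Between SVZ Sox2-GFP and hippocampus DCX-DsRed, Tek was higher by at least 11.02-fold (limma adjusted p = 0.0283) and Enpp2, a secreted lysophospholipase, lower (-2.96, adjusted p = 0.0153). Of the oligodendrocyte precursor, astrocyte and microglia markers 0 were called in any comparison. The smallest limma adjusted p in the hippocampal comparison was 0.0574 for Sox10, 0.408 for Aldh1l1 and 0.0577 for Tmem119. Between SVZ Sox2-GFP and hippocampus DCX-DsRed 9 of 12 astrocyte markers were higher and 0 lower without overlap, against 10.6% and 10.4% of all genes. There 0 of 11 oligodendrocyte precursor markers were higher and 6 lower, and 1 of 9 microglia markers was higher and 2 lower.

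Over all genes tested, those most like Anln across the 9 arrays were Bag6 (Pearson r = 0.98), Lmnb1, Olfr1286, Adam19, Tubb4a, Mal, Kazn, Ermn, Itgb1bp2 and Snrnp25 (r = 0.95), with 4 clone or model names left out. The 9 arrays form 3 groups, so these correlations follow the group means and are a description. Mal and Ermn are in the myelin list, Tubb4a encodes a brain tubulin, and Lmnb1 a protein of the nuclear lamina. Likeness is not size: Bag6 averaged 2.29 ± 0.07 in SVZ Sox2-GFP, 2.04 ± 0.02 in hippocampus Sox2-GFP and 2.53 ± 0.08 in hippocampus DCX-DsRed (SD, n = 3 each). Of the members, Sept7 correlated with Anln at 0.83, Sept4 at 0.78, Sept2 at 0.61, Sept8 at 0.02 and Sept9 at -0.69. The median correlation was 0.84 over the 18 myelin markers, 0.18 over the 16 cytokinesis genes and -0.80 over the 10 choroid plexus markers. The hippocampal arrays, on which Anln was chosen, weigh in all of these values. A list that differs between the hippocampal groups therefore tends to correlate with Anln, and nothing is read from the medians.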

How the data were processed

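Each deposited file is the scanner output of 1 array read in 1 colour. Per the file headers, spot intensity was extracted with Agilent Feature Extraction 9.5.1.1, and the processed signal is that software's background-subtracted intensity with no scaling across arrays. Raw mean and background intensity stand beside it in the deposited files, with flags of 0 or 1 for spots well above background, saturated or outlying. Limma is named, without a version, in the submitters' processing notes. One file had 47 gene symbols altered by a spreadsheet, so names were taken from an intact file.

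Control spots and outlier spots were left out, spots of a probe were averaged, and 40710 of 41174 probes remained. The processed signal was taken to log2, and the 75th percentile of the array was subtracted. RefSeq gene names were matched by accession for 22951 probes and by synonym for 3109; no probe coordinates are reported, as their build is not given in the sources used here. The brightest probe among those well above background on at least 3 of 9 arrays stood for a gene, which kept all 6 members. A linear model (limma 3.58.1, R 4.3.3; lmFit, eBayes) was fitted to all 9 arrays together, which left 6 residual degrees of freedom, and p-values were adjusted by Benjamini-Hochberg over 24897 genes at a threshold of 0.05; the steps were tested on simulated data. Where no array of the dimmer group read a probe well above background, the fold is a lower bound: per array, the dim value, where lower, was raised to the lowest signal of any probe well above background. The number of arrays limits the precision.

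The members and lists were chosen with earlier results of these data known. Named genes are all members, other septins and septin regulators; for each other list, at most 3 called genes per comparison by size of difference or, with none called, the one with the smallest p; and the 10 genes with the highest correlation with Anln, without clone or model names. Some of these are given as counts only. Alternatives covered normalization, background correction, probe filters, slide as a block, slide 3 alone, the replicate letter as a block, and each array left out. Same-lettered arrays did not deviate together (correlations of -0.04 to 0.12), so the letters were not used to pair arrays.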

Additional observations from a re-analysis of the deposited data

How the results depend on the processing

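Of 300 recomputed septin differences, 280 were scored as unchanged. With SVZ Sox2-GFP that meant the same direction and side of the threshold, whatever the size. In the hippocampal comparison it meant a move of less than the gene's SD within groups. A change of sign within that SD was not counted: Sept8 went from -0.06 to 0.52 without hippocampus DCX-DsRed B. In the comparisons with SVZ Sox2-GFP 5 reversed: SVZ Sox2-GFP minus hippocampus DCX-DsRed for Sept2 with slide as a fixed block (0.0119) and without SVZ Sox2-GFP C (0.29, lowest -0.74 with another array left out) and for Sept9 without hippocampus DCX-DsRed C (-0.0349, highest 0.58), and, without hippocampus Sox2-GFP C, the difference of SVZ Sox2-GFP from hippocampus Sox2-GFP for Sept4 (-0.0482, highest 3.27) and Sept7 (-0.0922, highest 0.85). None of these 5 was called in the main setting or when reversed.

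The Anln difference between hippocampus Sox2-GFP and hippocampus DCX-DsRed moved to -7.62 with normexp background correction and to -8.04 with the mean of both probes, and ran from -8.92 to -8.61 with 1 array left out. SVZ Sox2-GFP minus hippocampus Sox2-GFP lost its call with the mean of both probes (3.16), on slide 3 alone (5.01, adjusted p = 0.215) and with the replicate block (5.02, adjusted p = 0.0604), and ran from 4.60 to 5.38 with 1 array left out. SVZ Sox2-GFP minus hippocampus DCX-DsRed lost it on slide 3 alone (-3.93, adjusted p = 0.437) and without hippocampus DCX-DsRed A (-3.70, adjusted p = 0.0550), and ran from -4.15 to -3.37. Slide 3 alone has 4 arrays and called 0, 0 and 0 genes. The letters are only shared numbers, not pairs.

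Genes called were 790 for hippocampus Sox2-GFP minus hippocampus DCX-DsRed, 99 for SVZ against hippocampus Sox2-GFP and 385 for SVZ Sox2-GFP minus hippocampus DCX-DsRed. In that order they came to 2024, 2128 and 794 with slide as a fixed block and to 489, 13 and 191 with the replicate block. The second was 160 with normexp and 173 with the mean of all probes, and the third was 834 with slide as a random block. With 1 array left out they ran from 251 to 773, from 25 to 97 and from 49 to 846; the lowest counts came without hippocampus DCX-DsRed A for the first and the third and without hippocampus Sox2-GFP A for the second. Myelin markers called in the first fell to 4 without any 1 of the hippocampus DCX-DsRed arrays, and in the third ran from 1 without hippocampus DCX-DsRed A to 10 without hippocampus Sox2-GFP C. The 1 cytokinesis call (Ect2, in the third) became 0 under quantile normalization, normexp, slide 3 alone and the replicate block, and 2 with slide as a fixed or random block. With slide as a fixed block the median of all genes shifted to 0.24 for SVZ Sox2-GFP minus hippocampus Sox2-GFP, against 0.07. The cause of these changes was not tested.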
